A study of Mus musculus with 4 samples.

Results

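The GADD45 genes and classical targets of the transcription factor p53 were followed in livers of mice treated to delete Met and to inhibit EGFR. The set was given as 10 genes by symbol: Gadd45a, Gadd45b, Gadd45g, Cdkn1a, Mdm2, Btg2, Ccng1, Phlda3, Trp53inp1 and Bax. Of these 9 had a probe set with that single symbol in the platform annotation, among 18193 genes in all, and Bax was not analysed here. Together the 9 genes had 18 probe sets, and 8 genes lay above the filter on dim genes and were tested. The delta MET + EGFRi mice, of genotype Metff/ff:ERCre+/+, were given tamoxifen by injection on 5 days, which deletes exon 16 of Met, the gene for the HGF receptor. A rest of 4 days followed, then a diet with canertinib, an EGFR inhibitor, at an intended 80 mg/kg/day, and livers were taken 7 and 10 days into that diet. Control mice were littermates of the same genotype, so they carried the floxed Met alleles and the Cre too, and they were injected with corn oil alone and sampled at days 7 and 10. The effects of the deletion, of tamoxifen and of canertinib cannot be told apart in this design. The deletion was systemic and not limited to hepatocytes. The promoter that drives the Cre is not given in the labels, and the number of animals in a pool is not stated. The diet of the control mice is not stated either, so a difference in diet cannot be told apart from the treatment. Each group and day is 1 Affymetrix array of pooled liver RNA, 4 arrays in all, so that a group of 2 arrays spans both days and no spread between animals was measured.

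p53 is held low in unstressed cells by MDM2, an E3 ubiquitin ligase that is itself a p53 target. On DNA damage and other stress p53 accumulates and switches on genes that halt the cell cycle (Cdkn1a, Btg2), restrain AKT (Phlda3) or open the mitochondrial membrane (Bax). The GADD45 proteins are small stress sensors that bind p21, PCNA and the kinase MAP3K4. Gadd45a is a p53 target, whereas Gadd45b and Gadd45g are known mainly as early responders to cytokines and growth factors.

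The 250 bases before the annotated start were read from RefSeq (GRCm38.p6) for 9 of the 10 listed genes, with 2 starts for Cdkn1a and no entry for Trp53inp1. Of these genes, 4 are shown: the tested GADD45 gene with the larger difference (Gadd45g), the GADD45 gene that is a p53 target (Gadd45a), and the pair whose windows hold the closest p53 match (Cdkn1a at its upstream start, and Ccng1). Capitals mark a pair of adjoining p53 consensus decamers that match at 17 or more of 20 positions, a single decamer that matches at all 10, a CCAAT box on either strand, and a TATA box (TATAAA) on the strand shown.
Gadd45g, chr13:51846425-51846674, plus strand: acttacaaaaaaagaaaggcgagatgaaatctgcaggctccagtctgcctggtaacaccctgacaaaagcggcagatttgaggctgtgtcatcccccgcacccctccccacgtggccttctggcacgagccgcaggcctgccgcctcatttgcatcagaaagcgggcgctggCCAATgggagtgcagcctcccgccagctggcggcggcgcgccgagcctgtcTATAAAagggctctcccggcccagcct
Gadd45a, chr6:67037408-67037657, minus strand: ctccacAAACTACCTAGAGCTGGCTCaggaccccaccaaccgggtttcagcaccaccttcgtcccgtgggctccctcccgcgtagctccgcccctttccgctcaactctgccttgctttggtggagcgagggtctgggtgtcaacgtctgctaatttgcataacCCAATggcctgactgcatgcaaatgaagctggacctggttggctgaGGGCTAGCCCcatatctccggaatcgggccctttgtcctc
Cdkn1a, chr17:29090729-29090978, plus strand: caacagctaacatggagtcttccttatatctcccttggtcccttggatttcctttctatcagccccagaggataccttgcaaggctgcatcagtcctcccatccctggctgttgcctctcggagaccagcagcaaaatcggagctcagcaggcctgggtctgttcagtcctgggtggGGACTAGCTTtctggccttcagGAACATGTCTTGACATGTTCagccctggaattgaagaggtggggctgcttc
Ccng1, chr11:40755287-40755536, minus strand: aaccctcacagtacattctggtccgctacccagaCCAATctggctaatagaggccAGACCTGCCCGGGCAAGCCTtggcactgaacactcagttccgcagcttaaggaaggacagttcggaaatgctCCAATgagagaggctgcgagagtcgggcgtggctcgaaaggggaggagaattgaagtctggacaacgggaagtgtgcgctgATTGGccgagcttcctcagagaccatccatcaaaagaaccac

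The upstream Cdkn1a window held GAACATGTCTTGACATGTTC, which matched the paired p53 consensus at 19 of 20 positions, from 51 to 32 bases before the start. The Ccng1 window held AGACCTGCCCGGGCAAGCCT, also at 19 of 20 positions. Of all 32851 promoter windows of this length 0.0761% reached 19 positions, 5.32% reached 17, and 7.13% held a decamer complete at all 10 positions. Gadd45a and Bax reached 17 positions, and both also held a complete decamer. Mdm2 held a complete decamer but no pair above 15 positions. The windows of Gadd45b, Gadd45g, Btg2, Phlda3 and the downstream Cdkn1a start held no complete decamer and no pair of 17 or more. Gadd45g and Gadd45b were the members with a TATA box, which 7.59% of all windows hold. A CCAAT box, present in 33.8% of all windows, stood in those of Gadd45a, Gadd45b, Gadd45g, Mdm2, Btg2 and Ccng1. Such a match describes the letters of the window and does not show that a factor binds there. No binding was measured, and sites elsewhere in these genes were not searched.

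**Figure D1:**
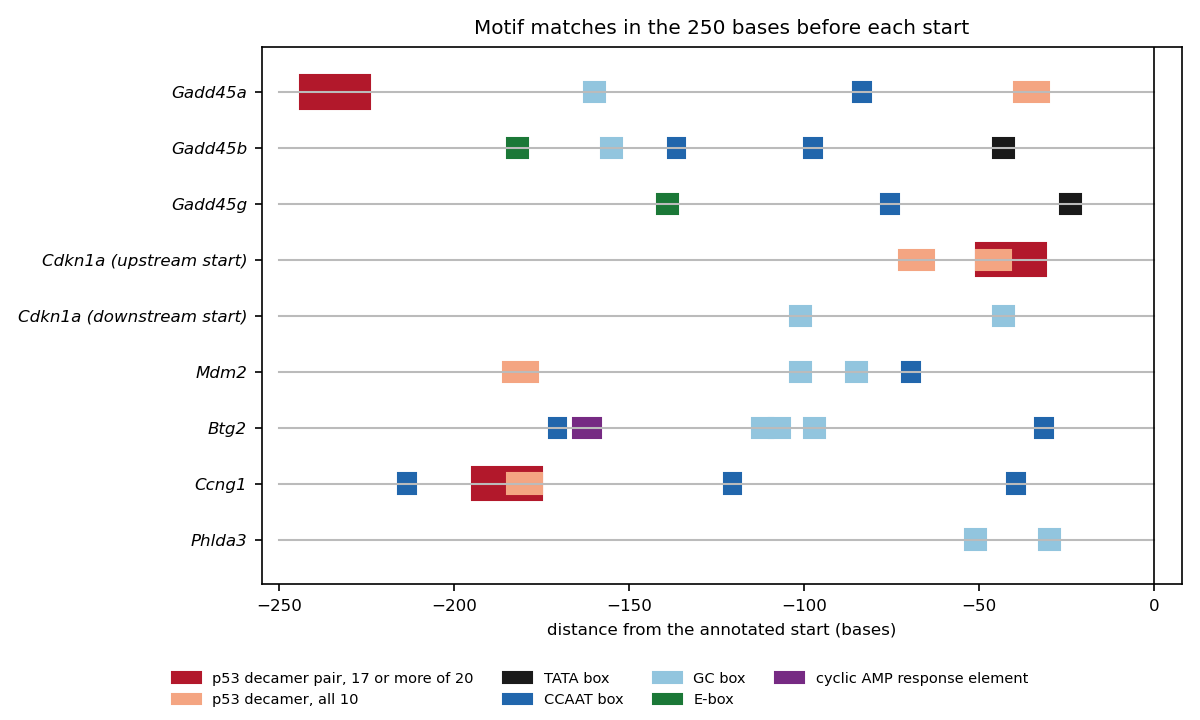
Motif matches in the 250 bases before each annotated start, by distance from the start in bases, for the measured genes with a RefSeq promoter entry. Tall red blocks are p53 decamer pairs (Gadd45a, the upstream Cdkn1a start and Ccng1), pale blocks are complete decamers, and the other colours are the boxes named in the key. GC boxes (GGGCGG), E-boxes (CACGTG) and the cyclic AMP response element (TGACGTCA) were searched on both strands.

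The arrays were comparable in overall brightness, with median signals from 210.5 to 223.9. Of 7 tested hepatocyte markers 0 were called by limma, with 2 higher at an unadjusted p under 0.05 (Hnf4a and Apob), and their median log2 difference was 0.06. Alb read 78531.5 and 74100.5 signal units in delta MET + EGFRi livers and 75758.2 and 71295.3 in control livers. The highest signals on these arrays were 79871.9 to 89171.6 units, and saturation of Alb was not tested. Both delta MET + EGFRi arrays lay above both control arrays for Hnf4a, a hepatocyte transcription factor, with 22744.6 and 20476.6 against 10643.3 and 13261.8 units. The same held for the lipoprotein gene Apob (log2 difference 0.68) and the tyrosine aminotransferase gene Tat (0.60). The place of the Met probe set relative to exon 16 is not known here, so it does not check the deletion. Met read 2432.5 and 2828.7 units in delta MET + EGFRi livers at days 7 and 10, and 975.5 and 1270.8 in control livers. Egfr, the target of canertinib, read 6685.5 and 7720.1 against 5664.4 and 9707.0. Macrophage and Kupffer cell markers stood higher in delta MET + EGFRi livers, with 13 of 13 higher at both days and 3 called (Cd163, C1qc and Vsig4). For 11 of the 13 both delta MET + EGFRi arrays lay above both control arrays, against 20.3% of all tested genes. The summed signal of these markers was 52961.7 and 52951.8 units against 24826.4 and 14004.8 in control livers. Of 10 neutrophil markers 9 were tested and 3 called higher (S100a8, S100a9 and Prtn3), with sums of 11429.8 and 14591.4 against 3918.4 and 3998.3 units. Camp was under the floor on every array. Of 7 B and plasma cell markers tested 1 was called higher (Jchain), and the list's median log2 difference was -0.11, with 2 genes higher and 3 lower at both days. Their sums of 19573.6 and 18309.2 against 12507.4 and 11375.8 units include Ighm, which read 9577.8 and 7610.5 against 2715.6 and 1016.8. Among 4 tested T and NK cell, 10 endothelial, 7 stellate and 3 cholangiocyte markers 0 were called by limma, with 1 (Ptprc) at an unadjusted p under 0.05. In whole liver RNA, a shift in the number of cells of a type and a shift in RNA per cell cannot be told apart. The part that these markers play in the values below was not tested.

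The main question was whether the GADD45 and p53 target genes differed between delta MET + EGFRi and control livers over both days. Of the 8 tested members 0 passed limma's test at a Benjamini-Hochberg adjusted p under 0.05, where 0.659% of all 11993 tested genes passed (0.375% higher and 0.283% lower). Without the delta MET + EGFRi array of day 7 2 members passed, in a fit that called 3.89% of all genes, and without that of day 10 it was 1, where 2.75% were called. Without either control array 0 members passed, where 0.217% (day 7 left out) and 0.2% (day 10 left out) of all genes did. At an unadjusted p under 0.05 there were 4 members, Gadd45g, Phlda3 and Cdkn1a higher and Ccng1 lower, against a background of 12.1% (5.93% higher and 6.15% lower). Both delta MET + EGFRi arrays lay above both control arrays for 4 of the 8 tested members (Gadd45g, Cdkn1a, Mdm2 and Phlda3), where the background over all tested genes was 20.3%. They did so too for Gadd45a, which is under the dim filter and so outside that background. Both lay below for 1, Ccng1, against 24.1%, and the background for either was 44.4%. The control arrays alone averaged above the dim filter for all 8 tested members, so that none was tested only because of its level after treatment. The median log2 difference of the tested members was 0.84 over both days, 0.83 at day 7 and 0.86 at day 10. Over all tested genes these medians were -0.02, -0.06 and 0.01. The genes were chosen with results of these data known, so the counts and medians are a description.

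**Figure D2:**
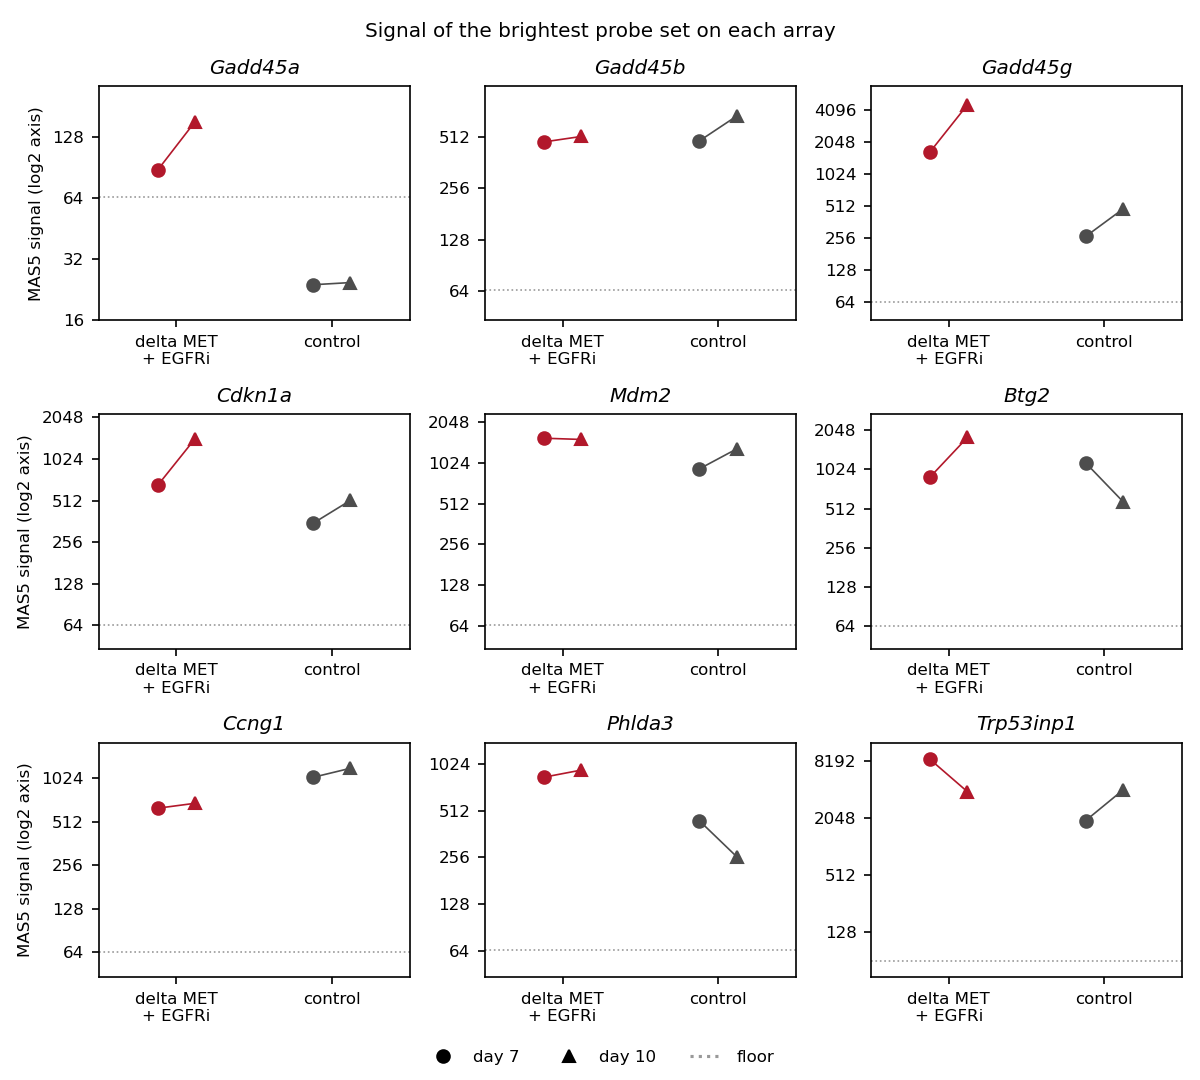
MAS5 signal of the brightest probe set of each measured gene on every array, on a log2 axis, with circles for day 7, triangles for day 10 and a dotted line at the floor of 64.7 units. The arrays of Gadd45g, Cdkn1a and Phlda3 from delta MET + EGFRi livers lie above both control arrays, those of Ccng1 lie below, and the lines of Btg2 and Trp53inp1 run steeply in opposite directions in the 2 groups.

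Of the GADD45 genes that could be tested, Gadd45g and Gadd45b, the cytokine-inducible Gadd45g showed the larger difference. Gadd45a, with control signals under the floor, cannot be ranked against them. Gadd45g read 1661.3 units at day 7 and 4595.4 at day 10 in delta MET + EGFRi livers, against 265.3 and 480.6 in control livers. The groups did not overlap, and day 10 was the brighter day in both. The ratio was 6.26-fold at day 7 and 9.56-fold at day 10. Over both days the log2 difference was 2.95 ± 0.52 (limma, SE, n = 2 arrays per group, adjusted p = 0.0866), short of the threshold. A limma fit that paired the arrays by day as a block gave an adjusted p of 0.0287, which passed. It also passed without the delta MET + EGFRi array of day 7 or that of day 10 (limma adjusted p = 0.000562 and 0.0151), fits whose spread comes from the control arrays alone. Without the control array of day 7 or day 10 it did not (limma adjusted p = 0.355 and 0.253).

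Gadd45a, which p53 induces through a site in its gene body, was dim. Its 1 probe set read 88.4 and 153.1 units in delta MET + EGFRi livers and 24.0 and 24.6 in control livers. Both control values lay under the floor of 64.7 units, so that the day 7 signal was at least 1.37-fold higher and the day 10 signal at least 2.37-fold higher. These bounds move with the floor. The log2 differences of 0.45 and 1.24 behind them became 1.88 and 2.64 with a floor at the 10th percentile of signals, and 0 and 0.10 at the 40th. The gene lay under the dim filter and was not tested.

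Gadd45b, induced by TGF-beta and NF-kappaB signalling, gave a different picture with each of its 3 probe sets. The brightest read 478.1 and 514.6 units in delta MET + EGFRi livers and 484.8 and 677.2 in control livers, with overlapping groups. Its log2 difference was -0.21 ± 0.26 (limma, SE, n = 2 arrays per group, adjusted p = 0.793). The annotation gives that probe set and the next one the gene symbol but no accession. The next one is of the s type, which can match transcripts of more than one gene, and it read 410.1 and 252.0 against 239.6 and 239.4 units. The dimmest, which does carry an accession, read 86.6 and 305.5 units in delta MET + EGFRi livers and 34.5 and 97.3 in control livers. On it the day 10 signal was 3.14-fold higher, and the delta MET + EGFRi array of day 7 lay under the control array of day 10. The direction for Gadd45b therefore depends on the probe set.

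**Figure D3:**
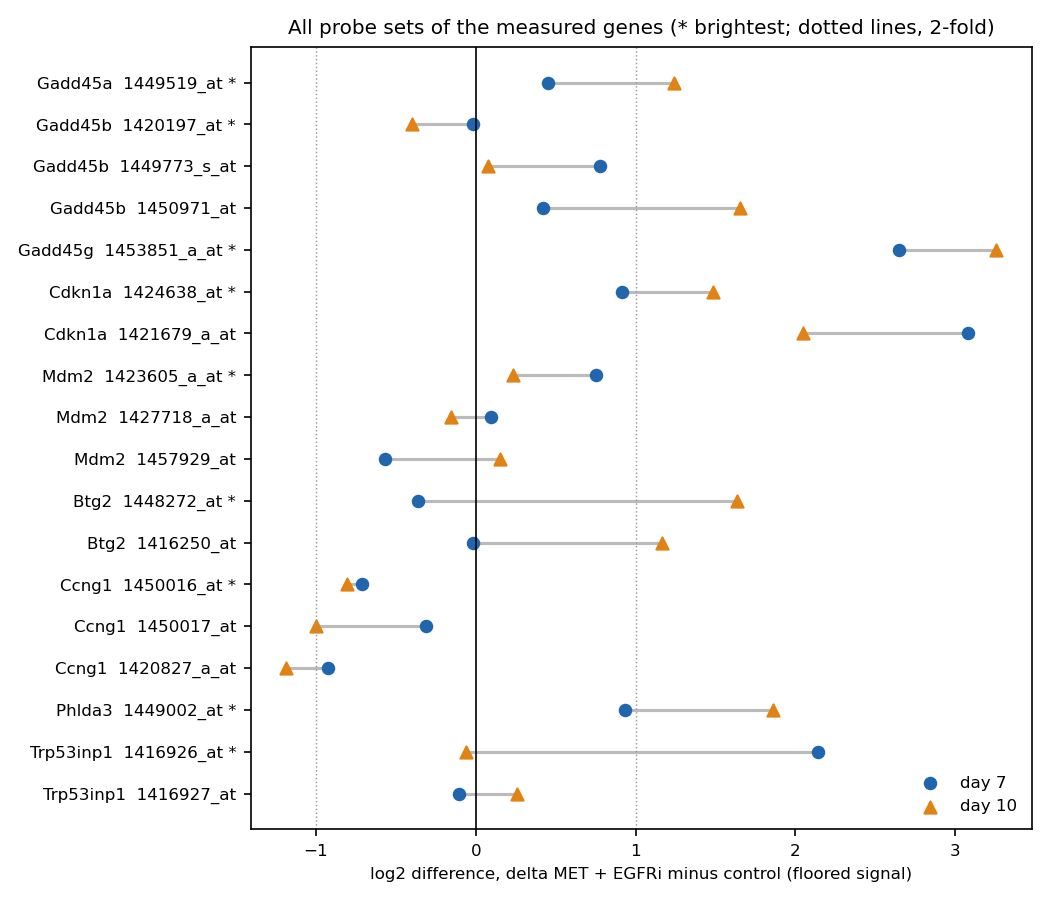
Log2 difference of the floored signal, delta MET + EGFRi minus control, at day 7 (circles) and day 10 (triangles) for all 18 probe sets, with the brightest of each gene starred and dotted lines at 2-fold. Gadd45g and both probe sets of Cdkn1a lie right of 0 at both days and the 3 of Ccng1 lie left of it, while the probe sets of Gadd45b, Mdm2 and Trp53inp1 disagree.

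Of the genes that stop the cell cycle, Cdkn1a encodes p21, an inhibitor of cyclin-dependent kinases. Its brightest probe set read 659.7 and 1435.4 units in delta MET + EGFRi livers and 350.4 and 513.5 in control livers. The groups did not overlap. The ratio was 1.88-fold at day 7 and 2.80-fold at day 10, and the log2 difference of 1.20 ± 0.41 did not pass (limma, SE, n = 2 arrays per group, adjusted p = 0.330). It passed without the delta MET + EGFRi array of day 7 (log2 difference 1.76, limma adjusted p = 0.0184) and not without that of day 10 (0.64, limma adjusted p = 0.480). Without the control array of day 7 it was 0.92 and without that of day 10 it was 1.47, and neither passed (limma adjusted p = 0.775 and 0.579). The other probe set read 547.2 and 1605.7 units against 19.1 and 388.1. The day 7 control value of 19.1 units was under the floor. With the floor in its place the day 7 difference was 8.46-fold, a value that moves with the floor. The day 10 difference on that probe set was 4.14-fold. Its log2 difference of 2.56 did not pass either (limma over 18922 probe sets, adjusted p = 0.339), in a fit in which 0.486% of probe sets passed.

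Btg2, an antiproliferative protein that recruits the CCR4-NOT deadenylase, differed by day. It read 897.1 and 1805.0 units in delta MET + EGFRi livers and 1151.1 and 581.0 in control livers. Its log2 difference of -0.36 at day 7 stood beside 1.64 at day 10, or 3.11-fold. From day 7 to day 10 the log2 step was 1.01 in delta MET + EGFRi and -0.99 in control livers. Its second probe set gave -0.019 and 1.17. Over both days the log2 difference was 0.64 ± 0.44 (limma, SE, n = 2 arrays per group, adjusted p = 0.618).

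Ccng1, cyclin G1, which works with protein phosphatase 2A in the control of MDM2, was the member for which both delta MET + EGFRi arrays lay below both control arrays. It read 636.3 and 688.2 units in delta MET + EGFRi livers and 1041.3 and 1202.2 in control livers, without overlap. The log2 difference of -0.76 ± 0.21 did not pass (limma, SE, n = 2 arrays per group, adjusted p = 0.247). Its other probe sets read 569.3 and 408.6 against 705.4 and 818.1 units, and 361.8 and 329.1 against 686.4 and 748.0 units, again without overlap. Their log2 differences were -0.66 and -1.05 (limma over probe sets, adjusted p = 0.409 and 0.171). Ccng1 and the upstream start of Cdkn1a each have a p53 decamer pair of 19 matching positions. Ccng1 lay below the control arrays and Cdkn1a above them, and neither passed. The Cdkn1a signal was not assigned to either start, and a part of p53 in these values was not tested.

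Mdm2, the ubiquitin ligase that restrains p53, read 1558.1 and 1525.2 units in delta MET + EGFRi livers and 924.3 and 1298.8 in control livers. Day 7 gave a log2 difference of 0.75 and day 10 one of 0.23, with 0.49 ± 0.24 over both days (limma, SE, n = 2 arrays per group, adjusted p = 0.484). Further probe sets read 757.2 and 837.5 against 709.5 and 932.1 units, and 157.7 and 222.8 against 233.6 and 200.8. On both of these the groups overlapped, so that the higher level of Mdm2 rests on the brightest probe set.

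Phlda3, a pleckstrin homology protein that competes with AKT for membrane lipids, read 843.2 and 937.2 units in delta MET + EGFRi livers and 441.1 and 258.7 in control livers. The groups did not overlap on its 1 probe set, and the ratio was 1.91-fold at day 7 and 3.62-fold at day 10. Much of the difference between those days lay in the control arrays, with a log2 step from day 7 to day 10 of 0.15 in delta MET + EGFRi and -0.77 in control livers. The log2 difference over both days was 1.40 ± 0.31 (limma, SE, n = 2 arrays per group, adjusted p = 0.158).

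Trp53inp1, a stress protein that promotes p53 activity and autophagy, was high on 1 array. It read 8538.2 units at day 7 and 3900.3 at day 10 in delta MET + EGFRi livers, against 1933.9 and 4066.8 in control livers. The ratio was 4.42-fold at day 7, while the day 10 log2 difference was -0.060. The signal was 2.19-fold higher at day 7 than at day 10 in delta MET + EGFRi livers, and 2.10-fold higher at day 10 than at day 7 in control livers. The log2 difference over both days was 1.04 ± 0.48 (limma, SE, n = 2 arrays per group, adjusted p = 0.460). Its dimmer probe set, annotated with the same accession, did not show this pattern, with 313.2 and 323.2 units against 336.9 and 270.2.

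Set by day and by size, with 1 array a group and no test, 2 of the 8 tested members were at least 2-fold higher at day 7 (Gadd45g and Trp53inp1), where 4.6% of all tested genes were. With arrays scaled to equal medians the day 7 count was 4 against 5.63%, since Cdkn1a and Phlda3 then reached log2 differences of 1.002 and 1.024, just past the 2-fold line. At day 10 there were 4 of the 8, Gadd45g, Cdkn1a, Btg2 and Phlda3, against 5.84%. Gadd45a, outside that background, was past 2-fold at day 10 at its bound, but not with a floor at the 40th percentile. Gadd45g alone was at least 2-fold higher at both days, against 1.54%. No member was 2-fold lower at either day, where 5.16% of all tested genes were at day 7 and 4.91% at day 10. Between day 7 and day 10, 4 of the 8 tested members were at least 2-fold apart in delta MET + EGFRi livers (Gadd45g, Cdkn1a, Btg2 and Trp53inp1), against 7.61% of all tested genes. In control livers this held for 1, Trp53inp1, against 5.14%. Btg2 stood close to the 2-fold line in both groups, with log2 steps of 1.009 in delta MET + EGFRi and -0.986 in control livers. With arrays scaled to equal medians its step in delta MET + EGFRi livers was 0.938, and the count there was 3.

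Genes of the same pathways were set beside the members, from lists that were also chosen with results of these data known. Among 29 other p53 targets 22 were tested and 0 passed limma's test, with 1 higher and 2 lower at an unadjusted p under 0.05. Their median log2 difference was 0.07, at 0.28 on day 7 and -0.15 on day 10. Ddit4, an inhibitor of mTORC1 that other stress pathways also induce, read 1563.9 and 675.3 units in delta MET + EGFRi livers and 220.8 and 290.8 in control livers (limma adjusted p = 0.142). Plk2, a polo-like kinase, read 100.3 and 127.2 against 325.4 and 487.1 units (limma adjusted p = 0.187). Bbc3, the p53-induced death protein PUMA, read 468.5 and 392.1 against 728.6 and 702.6 units (limma adjusted p = 0.288). Sesn1, a stress-induced sestrin, read 1079.0 and 622.8 against 594.1 and 448.7 units (limma adjusted p = 0.484). For these 4 genes, picked for large differences of 1 sign, the groups did not overlap. Ddit4 and Sesn1 lay above and Plk2 and Bbc3 below the control arrays. Of the 22 tested targets 6 lay above both control arrays and 5 below both. Over all tested genes these shares were 20.3% and 24.1%. Outside that background, under the dim filter, Ddb2 read 372.1 and 273.9 against 123.5 and 75.4 units. Tnfrsf10b also lay above both control arrays, with 86.1 and 133.2 against 62.5 and 34.2 units. The groups overlapped for Zmat3 and Eda2r, and Pmaip1 and Sfn were under the floor on every array.

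Trp53 itself was not analysed here. Of 16 tested regulators of p53 0 passed limma's test and 0 had an unadjusted p under 0.05, with a median log2 difference of 0.13. The coactivator gene Crebbp read 839.4 and 824.5 units in delta MET + EGFRi livers and 289.5 and 671.2 in control livers (limma adjusted p = 0.437). The p53 kinase gene Hipk2 read 1428.2 and 1548.2 against 1798.9 and 2408.7 (limma adjusted p = 0.477). Ppp1r13b, which encodes the p53-binding protein ASPP1, read 961.9 and 874.7 against 1307.2 and 1229.3 units (limma adjusted p = 0.438), and the checkpoint kinase gene Chek2 307.4 and 425.4 against 410.9 and 511.8 (limma adjusted p = 0.691). Of 10 tested GADD45 partners and stress kinases 0 passed limma's test, with 1 (Mapk9, lower) at an unadjusted p under 0.05 and a median of -0.07. Map3k4, the kinase that GADD45 proteins bind, read 1043.6 and 899.4 units against 1390.4 and 1010.3 (limma adjusted p = 0.684). Mapk14, the p38 kinase downstream of it, read 3242.0 and 2240.5 against 1743.9 and 1960.9 (limma adjusted p = 0.463).

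Of 10 tested genes named for growth arrest and DNA damage or placed in the stress response 1 passed limma's test. That was the transcription factor gene Cebpb, which was higher. It read 8564.0 and 9501.3 units in delta MET + EGFRi livers and 3107.6 and 2942.5 in control livers (limma adjusted p = 0.0307). Without passing, Ppp1r15a, which encodes GADD34, a regulator of translation under stress, read 720.3 and 873.7 units against 359.9 and 559.9 (limma adjusted p = 0.347). Trib3 read 469.6 and 664.0 against 418.7 and 341.6 (limma adjusted p = 0.498), and Asns, the asparagine synthetase gene, 2684.0 and 2417.7 against 3339.0 and 4122.6 (limma adjusted p = 0.396). The list's median log2 difference was 0.42, with 3 genes higher and 1 lower at an unadjusted p under 0.05 (limma). Both delta MET + EGFRi arrays lay above both control arrays for 6 of the 10 and below both for 1. Over all tested genes 20.3% lay above and 24.1% below. Ddit4, given above, and Sesn2 are in this list as well as among the other p53 targets.

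Among 14 tested partners of p21, cyclins and CDK inhibitors 0 passed limma's test, with 1 higher and 1 lower at an unadjusted p under 0.05 and a median of -0.08. The higher one was Ccne1, cyclin E1, with 730.5 and 796.1 units in delta MET + EGFRi livers and 459.0 and 319.6 in control livers (limma adjusted p = 0.231). The lower one was the G1 cyclin gene Ccnd1, with 642.0 and 896.3 against 1447.7 and 1436.2 units (limma adjusted p = 0.217). Of 16 proliferation markers 6 lay above the dim filter and 0 of them passed, nor did any reach an unadjusted p under 0.05 (median -0.04). Mki67 and Top2a were not among the 6. In the BCL2 family, to which Bax belongs, 0 of 12 tested genes passed limma's test and the median was 0.01, with 2 higher (Bik and Mcl1) and 1 lower (Bbc3) at an unadjusted p under 0.05. Mcl1, which protects hepatocytes from apoptosis, read 4509.3 and 4992.1 units in delta MET + EGFRi livers and 2453.3 and 2342.6 in control livers (limma adjusted p = 0.129). The BH3-only gene Bik read 335.6 and 414.1 against 90.9 and 162.9 units (limma adjusted p = 0.260).

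**Figure D4:**
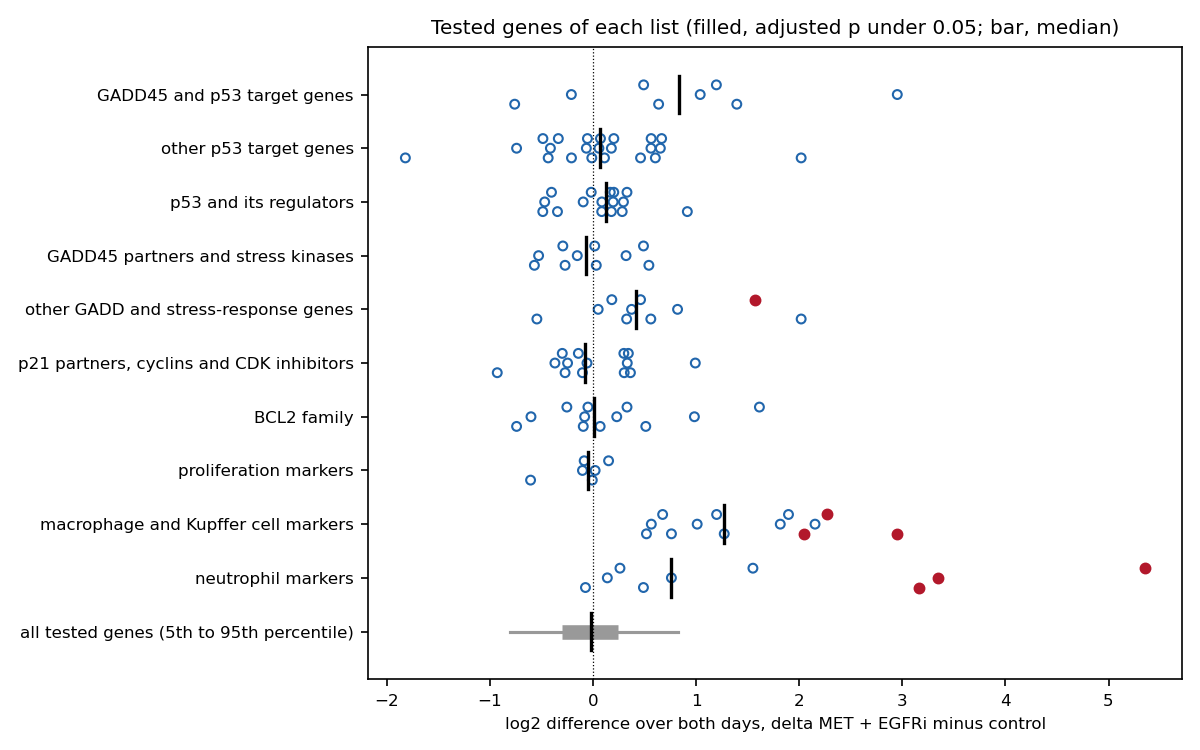
Log2 difference over both days, delta MET + EGFRi minus control, for every tested gene of each list, with filled points for an adjusted p under 0.05 and a bar at the list's median. The grey bar for all 11993 tested genes runs from the 25th to the 75th percentile (-0.29 to 0.25) and its line from the 5th to the 95th (-0.80 to 0.82). The 8 tested GADD45 and p53 target genes have a median of 0.84 and no filled point.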

How the data were processed

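The deposited table holds linear intensity (signal) values of 45101 probe sets on 4 arrays, made with MAS5 per the submitters' processing notes, with no version given in the sources used here. The values show that each array was scaled to a mean of about 500 after trimming 2% at each end, which makes levels relative to the rest of the array. Detection calls were not used. The platform annotation gave 34945 probe sets 1 symbol, 932 several and 9160 none, and 99.4% of the first matched RefSeq (GRCm38.p6) by Entrez ID. Bax was not analysed here.

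Signals under the 25th percentile (64.7 units) were set to it, log2 was taken, the brightest probe set stood for a gene, and 11993 genes with a mean log2 above 7.67 (204 units) were kept. limma 3.58.1 in R 4.3.3 (lmFit, eBayes with an intensity trend, two-sided, no day term, 2 residual degrees of freedom) compared the groups, and p-values were adjusted over all kept genes. They measure the spread between 2 pooled arrays of different days in each group, shrunk by eBayes toward its intensity trend over all kept genes. Single days had no test and a 2-fold size rule. Both groups share the days, so day as a block was the paired alternative.

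The members and all lists were chosen with earlier results of these data known. All members were named. Genes of other lists were taken from those that passed and up to 4 more a list with the largest mean difference of 1 sign, and most such marker genes of other cell types are given as counts. Mki67, Top2a, Camp and the p53 targets under the dim filter were named after their values were seen. So were the promoter motifs, which were searched with Python 3.11.15. The alternatives were those given at the close.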

Additional observations from a re-analysis of the deposited data

Results flagged for a closer look

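With 2 arrays a group no array could be tested as an outlier. The effects at day 7 and day 10 had opposite signs for 2 of the measured genes on their brightest probe set, and this difference between days was not tested, since each day has 1 array a group. Btg2 had log2 differences of -0.36 at day 7 and 1.64 at day 10, and its other probe set gave -0.019 and 1.17. Trp53inp1 had 2.14 at day 7 and -0.060 at day 10, with -0.11 and 0.26 on its dimmer probe set. The sign of its day 10 value depended on the processing. That value was 0.018 in quantile-normalized arrays, 0.099 with mean probe sets and -0.11 in median-scaled arrays. Among the dimmer probe sets of Mdm2, the brighter one gave 0.094 and -0.15, and the dimmer one gave -0.57 and 0.15.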

How the results depend on the processing

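No member passed in quantile-normalized or median-scaled arrays, with floors set at the 10th and 40th percentiles, with a filter at the 75th percentile (6 members tested) or none, with mean probe sets, or without the trend. With day as a replicate block 1 member passed (Gadd45g, limma adjusted p = 0.0287), where 0.392% of all tested genes did. The block ended or made no other member's call. An adjusted p under 0.1 also gave 1, where 1.35% of all tested genes passed. Of 117 values of tested members under alternatives 108 kept their direction and their side of the threshold. The others were 5 in which a member newly passed and 4 reversals of members that did not pass. Gadd45b turned to 0.42 with mean probe sets, 0.42 on its second probe set and 0.033 without the day 10 control array (-0.45 without that of day 7), and Mdm2 to -0.030 on its second probe set. On its dimmer probe set Trp53inp1 gave -0.11 at day 7 and a step of 0.045 between days in delta MET + EGFRi livers. The number of genes called, 79, became 0 without a filter (limma, 1919 at an unadjusted p under 0.05), 42 with mean probe sets, 42 without the trend, 47 with the block, 162 at an adjusted p under 0.1, and 24 to 466 without 1 array (466 and 330 without the delta MET + EGFRi arrays of day 7 and 10, 26 and 24 without the control arrays). Fits without a delta MET + EGFRi array take their spread from the controls alone, and the cause was not tested. Of the listed other genes 8 were called, against 0 without a filter, 5 with the 75th percentile, 5 with mean probe sets, 4 without the trend, 5 with the block and 2 to 14 without 1 array. At least 2-fold apart were 2 members at day 7 (4 with median-scaled arrays, 6 at 1.5-fold, of which Ccng1 was lower). At day 10 there were 5 with Gadd45a at its bound (4 with a floor at the 40th percentile, 3 at 3-fold). Between days in delta MET + EGFRi livers there were 4 (3 with median-scaled arrays, 2 with mean probe sets, 0 at 3-fold). For the 1.5-fold and 3-fold rules no share of all tested genes is given here, so those counts are a description. Pooled RNA and 4 arrays limit the precision of every value.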

Other observations

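Relatives of the members showed no call. Of 6 tested genes of the BTG and TOB family and its CCR4-NOT partners 0 passed limma's test and 0 had an unadjusted p under 0.05, with a median log2 difference of -0.04. None of the 6 had the same sign at both days. Of 3 relatives of Phlda3 and Trp53inp1, 2 were tested (Phlda1 and Trp53inp2), 0 passed limma's test and 0 had an unadjusted p under 0.05. Phlda1 and Trp53inp2 were named after their values were seen.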
